A study of Rattus norvegicus with 2 samples.

Results

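Heat shock proteins and DnaJ cochaperones were followed in the hypothalamus of male and female rats. The genes were taken by their names on the array, as every non-control spot whose gene name began with Hsp or Dnaj in the numbering of these families, without Hspg2 and Hspbap1. This gave 73 of the 26334 gene names on the array, on 92 probes and 173 spots. Of these genes, 42 carried DnaJ names and 31 carried Hsp names. The signal was well above background in both pools for 68 genes and in neither pool for 5, and 0 genes were measured in 1 pool only. The 5 genes without a level were Dnajb7, Dnajc5b, Dnajc5g and the pseudogenes Hspd1-ps14 and Hspd1-ps20. Over all names on the array, 20664 genes were measured in both pools.

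The rats were of the WKY (Wistar Kyoto) strain, untreated as far as the labels state, and 9 weeks old. The male group was 1 pool of RNA from the whole hypothalamus of 5 males, and the female group was 1 pool from 5 females, each rat giving 100 ng of total RNA. Each pool was labelled with the dye Cy3 and hybridised to 1 Agilent array, so each group held 1 array. Differences between rats of a sex were not measured, no test between the sexes could be made and none is reported. Below, males and females stand for these 2 pools. The labels name no stage of the estrous cycle.

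Chaperones hold unfolded proteins and help them reach or regain their shape. Proteins of the Hsp70 family bind and release short stretches of client protein in a cycle driven by ATP. DnaJ proteins bring clients to Hsp70 and speed its ATP hydrolysis through their J domain, and nucleotide exchange factors reset it. Hsp90 acts later on selected clients, among them steroid hormone receptors, and small heat shock proteins hold clients without using ATP. In neurons, constitutive Hsp70 with its J domain partners also strips clathrin from vesicles and keeps synaptic proteins folded. Heat shock factors drive the heat-inducible genes from heat shock elements, and the unfolded protein response drives chaperones of the endoplasmic reticulum from ER stress response elements.

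A level is given here as log2 of the processed intensity minus log2 of the 75th percentile of the array, and a difference is the female level minus the male level. A level belongs to its probe, so levels were compared between the pools and not between genes. The array files gave the processed intensity at the 75th percentile as 3769 for males and 2943 for females. The share of spots well above background was 84.9% and 84.2%, and 0 spots were saturated. Among genes fixed as cell type markers, all 12 of the meninges were higher in females, with a median difference of 1.02 and a summed level of 2.15 in males and 3.14 in females. For choroid plexus 3 of 5 were higher, with a summed level of 0.41 and 1.27, and for blood 0 of 5, with 3.73 and 3.41. Of 8 hypothalamic neuropeptide genes, 4 were higher and 4 lower in females, from -0.30 for Agrp to 0.58 for Gnrh1. Their summed level was 7.48 in both pools, and that of 4 neuronal genes was 4.52 and 4.59. A summed level adds intensities over genes, so the brightest genes set most of it. For the hypothalamus these were Pmch, Avp and Oxt, at differences of 0.10, -0.27 and 0.13. For choroid plexus it was Ttr, on 1 spot. Equal sums therefore do not show equal tissue content. Whether the amount of meninges, choroid plexus or blood in the dissected tissue had a part in the chaperone values was not tested. In pooled tissue, fewer cells of a type and less RNA per cell cannot be told apart.

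The chaperone genes stood at nearly the same levels in both pools. The median difference of the 68 measured genes was 0.023, with a range from -0.40 to 0.64, beside a median of 0.00012 over all 20664 genes. The female pool was higher for 38 genes and lower for 30, a share of 55.9% higher beside 50% of all genes. This split moved with the scaling of the arrays. With scaling to the spike-in controls 19 of the 68 were higher, with scaling to the median 27, with quantile normalization 32 and with normexp background correction 45 of 67. In this order, these are 27.9%, 39.7%, 47.1% and 67.2% of the chaperone genes. Of all measured genes, 32.4%, 39.1%, 44.5% and 63.3% were higher under the same settings, so the whole array moved. The spread of the differences, as an SD over genes, was 0.137 for the chaperone genes and 0.233 for all genes, and the median size of a difference was 0.061 and 0.092. The chaperone genes and all genes were not matched for brightness in these values. The SD of a difference between repeated spots was 0.215 in the dimmest class of level and 0.0579 in the brightest. Whether brightness had a part in the smaller spread of the chaperone genes was not tested.

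A difference of 1.5-fold or more was reached by 1 chaperone gene, Dnajc28, which was higher in the female pool, where 1.56% of all measured genes were. The male pool was higher by this much for 0 chaperone genes and for 0.842% of all genes. In either direction, 2.4% of all genes passed. At 1.2-fold, a limit chosen after the values were seen, Dnajc28, Dnajc7 and Hsp90b1 were higher in the female pool, beside 8.58% of all genes, and Hspb3 was higher in the male pool, beside 4.52%. These 4 genes are 5.88% of the measured chaperone genes, and 13.1% of all genes passed the same limit in either direction. The shares were likewise not matched for brightness.

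**Figure D1:**
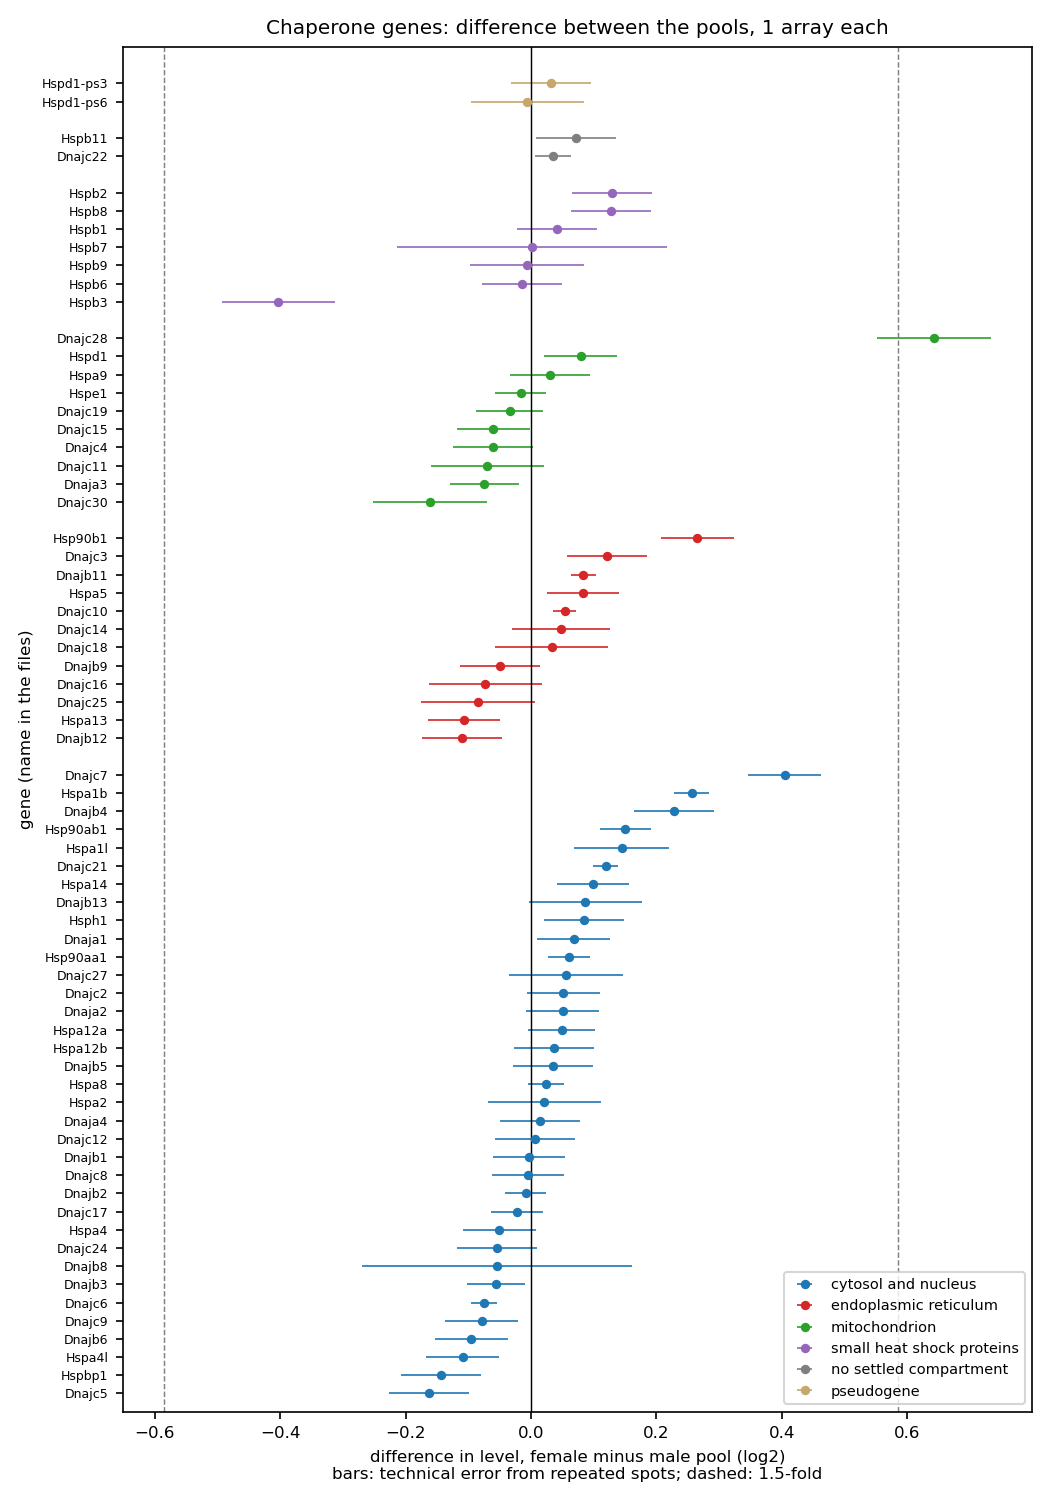
Difference between the pools (female minus male, log2) for the 68 measured chaperone genes, 1 point per gene, grouped by compartment; dashed lines mark 1.5-fold. Dnajc28, at 0.64, is the only point beyond a line, and most points lie close to 0.

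**Figure D2:**
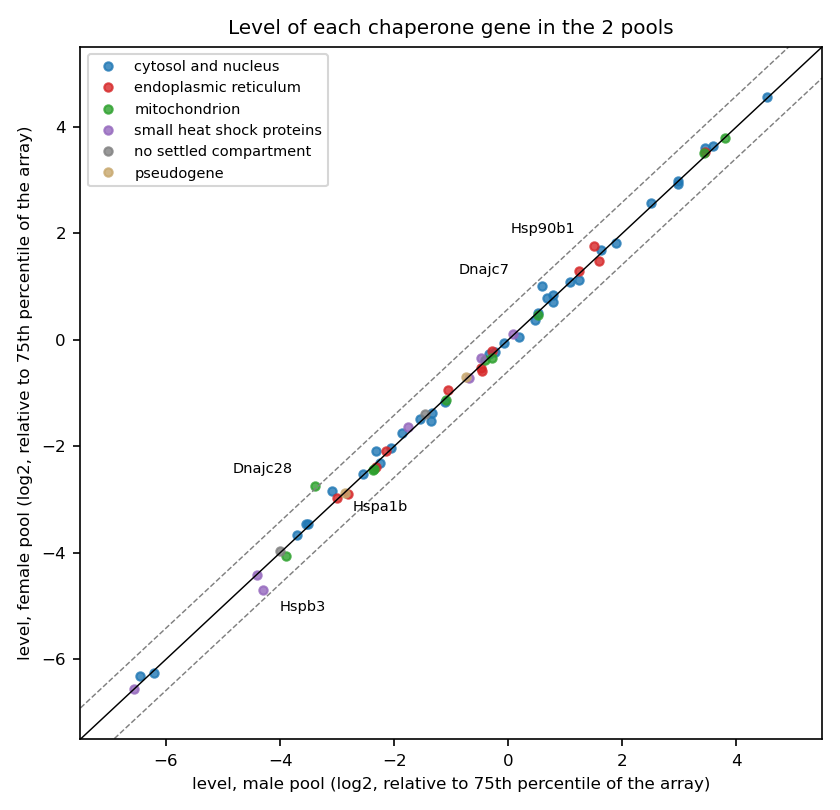
Level of each chaperone gene in the male pool (horizontal axis) against the female pool (vertical axis), both log2 relative to the 75th percentile of the array; the solid line marks equal levels and the dashed lines 1.5-fold. The points follow the solid line from the dimmest genes near -6.5 to Hspa8 near 4.5.

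The 3 Hsp90 genes were all higher in females, with a median difference of 0.15. Hsp90b1 encodes GRP94, the Hsp90 of the endoplasmic reticulum, which folds secreted and membrane proteins. Its level was 1.5 in males and 1.77 in females, a difference of 0.27 ± 0.058 or 1.2-fold. The error given here and for other genes on single spots is the SD of a difference between repeated spots of like brightness on these arrays. It covers scatter within the slide and leaves out the rats, the labelling and the hybridisation. For a gene with several probes the error is that of their mean, and it leaves out how far the probes part. Hsp90ab1, the constitutive cytosolic Hsp90, stood at 3.45 in males and 3.60 in females, a difference of 0.15 ± 0.041 from 2 probes that gave 0.24 and 0.060. Hsp90aa1, the inducible cytosolic form, stood at 3.58 and 3.64, a difference of 0.061 ± 0.033, and its 3 probes gave 0.34, -0.047 and -0.11. The sign of Hsp90aa1 was therefore set by 1 probe, and it turned to -0.047 when the brightest probe alone was used. It was also negative with scaling to the spike-in controls.

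Of the 10 Hsp70 genes, 9 were higher in females, with a median difference of 0.043. With scaling to the spike-in controls 4 of the 10 were higher, and with scaling to the median 5, beside 32.4% and 39.1% of all genes. Hspa1b, a heat-inducible Hsp70 of the cytosol, showed the widest difference of the family. Its measured probe lay on 10 spots spread over the slide, and its level was -3.09 ± 0.069 in males and -2.83 ± 0.078 in females (SD over spots of 1 array). All 10 spots were higher in the female pool, from 0.12 to 0.42, with a mean difference of 0.26 ± 0.093 (SD over 10 spots), or 1.19-fold. The probe lies at chr20:3957864-3957923 (rn4, + strand, per the deposited files). A second probe named Hspa1b, at chr20:3959493-3959552, did not rise well above background on either array. The first 30 bases of both are shown because the gene's value rests on the first of them alone.

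Hspa1b, measured probe: ctcgtgggttttttatatattcaaattaag

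Hspa1b, probe not well above background: atcctagggtaaagaagtcttcagcaatag

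Hspa1a, a near-identical copy beside Hspa1b, is not a gene name on the array, so signal of the copies may be shared. Hspa1l, the third gene of that cluster, known for its expression in testis, was among the dimmest members. Its 8 spots gave -6.46 ± 0.37 in males and -6.31 ± 0.16 in females, and the differences ran from -0.48 to 0.67 with 5 of 8 above 0, so no direction was resolved.

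Hspa8, the constitutive Hsp70 that uncoats clathrin vesicles, stood at 4.53 in males and 4.55 in females, a difference of 0.024 ± 0.029. Its 4 probes gave -0.12, -0.015, 0.096 and 0.14, on both sides of 0. Hspa5, or BiP, the Hsp70 of the endoplasmic reticulum, stood at 3.45 and 3.53, a difference of 0.083 ± 0.058. Hspa9, or mortalin, the Hsp70 of the mitochondrial matrix, stood at -0.41 and -0.38, a difference of 0.030 ± 0.064. Hspa13, the member that was lower, is a shortened Hsp70 of microsomes and stood at 1.59 and 1.481, a difference of -0.11 ± 0.058. Apart from Hspa1b, none of these single-spot or averaged values exceeded 2 times its technical error.

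Promoter sequence was read for the members that RefSeq gives a promoter, 54 of the 73, as the 250 bases before the gene's start in assembly GRCr8. The heat shock element was searched as GAANNTTCNNGAA, which reads TTCNNGAANNTTC on the other strand. It was found in 222 of 33469 promoter entries (0.663%), where a gene can have several entries. Counted by gene, 4 of the 54 chaperone genes with a promoter held it (7.41%), namely Hspa8, Hsph1, Hspd1 and Hspe1. The 2 shares count unlike units and are not set against each other. By gene, 46 of the 10586 measured genes of the array with a promoter held the element. The promoters of these 4 genes are shown because they give the element itself, in capitals, within its surroundings. Hspd1 and Hspe1 lie head to head and share the same stretch, printed on the Hspe1 strand. There 2 overlapping matches, one on each strand, form a single run in capitals.

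Hspa8, chr8:50080276-50080496, GRCr8, + strand: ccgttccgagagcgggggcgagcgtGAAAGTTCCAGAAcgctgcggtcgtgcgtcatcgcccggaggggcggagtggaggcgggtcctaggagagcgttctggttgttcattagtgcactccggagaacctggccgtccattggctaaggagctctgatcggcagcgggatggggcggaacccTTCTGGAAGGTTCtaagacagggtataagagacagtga

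Hsph1, chr12:10427307-10427367, GRCr8, + strand: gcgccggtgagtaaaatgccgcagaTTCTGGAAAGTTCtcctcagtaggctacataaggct

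Hspe1 and Hspd1, chr9:64084237-64084304, GRCr8, + strand: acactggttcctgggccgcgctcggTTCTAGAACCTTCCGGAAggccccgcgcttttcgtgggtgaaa

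The match nearest the start ended 43 bases before that of Hspa8 and 24 bases before that of Hsph1. The shared run ended 48 bases before the start of Hspe1 and 225 before that of Hspd1. A match is a description of the letters and not a site of binding, and its absence from this window says nothing about the factor. The differences of these 4 genes were 0.024 for Hspa8, 0.084 for Hsph1, 0.079 for Hspd1 and -0.017 for Hspe1. Over the 46 measured genes of the array whose promoter held the element, 21 were higher in the female pool and the median difference was -0.016, beside -0.0080 over the 10586 measured genes with a promoter.

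Nucleotide exchange factors stood on both sides of 0, with 1 of 4 higher in the female pool. Hsph1, or Hsp105, which releases clients from Hsp70, stood at -0.34 in males and -0.26 in females, a difference of 0.084 ± 0.064. Hspbp1, which binds Hsp70 and opens its nucleotide pocket, stood at 0.19 and 0.048, a difference of -0.14 ± 0.064. Hspbp1 is a member of the set, and it is described here as an example chosen after its values were seen.

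DnaJ genes leaned neither way. The female pool was higher for 18 and lower for 21 of the 39 measured, with a median difference of -0.0048. By class, 3 of 4 class A genes, 4 of 11 class B genes and 10 of 23 class C genes were higher, with Dnajc22 left out of the classes because its compartment is not settled. Spike-in scaling left 8 of the 39 higher, and normexp background correction 23, beside 32.4% and 63.3% of all genes.

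Among the cytosolic DnaJ genes, Dnajc7 (TPR2), whose protein links Hsp70 and Hsp90, differed the most. Its level was 0.60 in males and 1.0 in females, a difference of 0.40 ± 0.058 or 1.32-fold, from 1 spot at chr10:89533699-89533758 (rn4, - strand). Dnajb4, a class B partner of Hsp70, stood at -2.33 and -2.10, a difference of 0.23 ± 0.064, also from 1 spot. Both were higher in the female pool under every scaling and background setting tried, and Dnajb4 was at 0.13 with normexp background correction. Scaling to the median or the spike-in controls shifts all genes by 1 small constant and could not turn differences of this size. Dnajc21, which takes part in making the large ribosomal subunit, lay on 10 spots and was higher in the female pool on all of them. Its level was -1.87 ± 0.058 in males and -1.75 ± 0.048 in females, with a difference of 0.12 ± 0.059 (SD over 10 spots).

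Dnajc5 and Dnajc6, both known from the synapse, were lower in the female pool. Dnajc5, or cysteine string protein, guards SNARE proteins on synaptic vesicles, and its level was -1.36 in males and -1.52 in females. The difference was -0.16 ± 0.064, or 1.12-fold, from 1 spot. Dnajc6, or auxilin, recruits Hsp70 to clathrin coats in neurons and stood at 1.89 ± 0.043 and 1.82 ± 0.053 over 8 spots. The difference was -0.075 ± 0.074 (SD over spots), and 7 of the 8 spots were lower in the female pool. Both genes kept their sign under every scaling and background setting tried. Scaling to the median or the spike-in controls lowered all differences and so could not turn these signs. Under the main setting, 3 of 4 neuronal markers were higher in the female pool, and their summed level was 0.069 higher. Whether the amount of neurons had a part in the values of Dnajc5 and Dnajc6 was not tested.

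Dnaja1 and Dnajb1, the main class A and class B partners of cytosolic Hsp70, stood at similar levels in both pools. Dnaja1 stood at 2.50 in males and 2.57 in females, a difference of 0.068 ± 0.058. Dnajb1, a heat-inducible gene, stood at 1.09 and 1.08, a difference of -0.0034 ± 0.058. Dnajb2, a neuronal DnaJ that passes clients to the proteasome, gave -0.032 ± 0.037 over the 10 spots of its repeated probe, with 2 of 10 above 0. Averaged with a second probe, the gene gave -0.0087. Dnajb3 gave -0.042 ± 0.14 over 10 spots, also with 2 above 0. Dnajc22, whose compartment is not settled, gave 0.035 ± 0.12 over 10 spots, with 7 above 0.

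**Figure D3:**
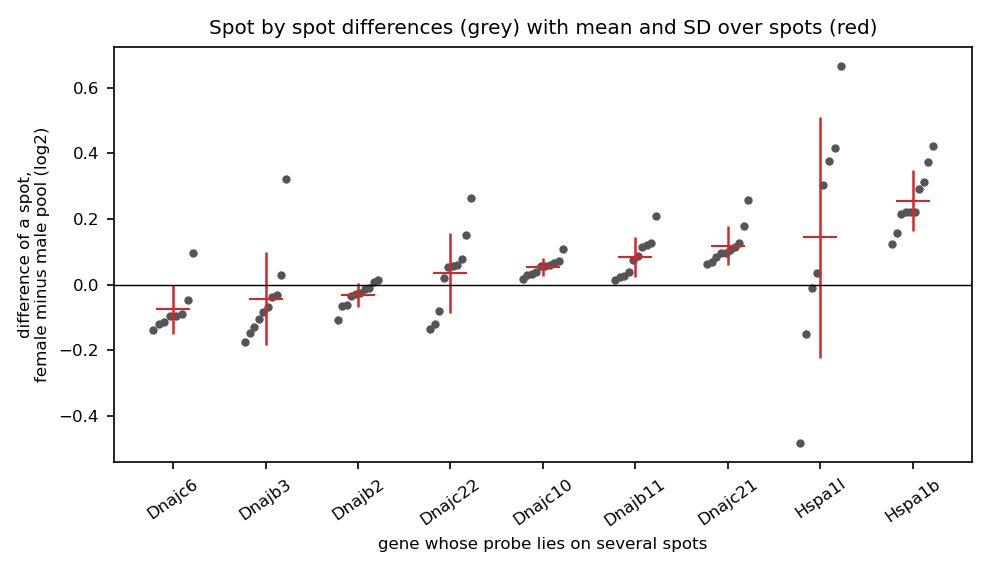
Difference between the pools (female minus male, log2) on each spot of the 9 chaperone genes whose probe lies on several spots, 1 point per spot, with the mean and SD over spots. All spots of Hspa1b, Dnajc21, Dnajb11 and Dnajc10 lie above 0, and the 8 spots of the dim Hspa1l spread from -0.48 to 0.67.

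In the endoplasmic reticulum all 12 genes were measured, 7 of them higher in the female pool, and the median difference was 0.040. With scaling to the spike-in controls 4 of 12 were higher and the median was -0.025. Of all genes 32.4% were then higher, at a median of -0.066. Beside Hsp90b1 and Hspa5, described above, the cofactors of BiP stood on both sides of 0. Dnajb11, Dnajc10 and Dnajc3 were higher in the female pool, while Dnajb9 (ERdj4) gave -0.049. Dnajc25 and Dnajc16, other J domain proteins of this compartment, gave -0.085 and -0.073. Dnajb11 (ERdj3) stood at -0.29 ± 0.052 in males and -0.21 ± 0.052 in females and was higher on all of its 10 spots, by 0.083 ± 0.061 (SD over spots). Dnajc10 (ERdj5), a reductase that opens disulfide bonds of misfolded proteins, stood at 1.23 ± 0.034 and 1.29 ± 0.027, higher on all 10 spots by 0.054 ± 0.026. Dnajc10 turned to -0.012 with scaling to the spike-in controls. Dnajc3 (p58IPK), which also restrains the stress kinase PERK, stood at -1.06 and -0.94, a difference of 0.12 ± 0.064 from 1 spot, which is under 2 times its technical error. Dnajb12, a membrane DnaJ of the degradation pathway, was lower in the female pool, at -0.47 and -0.58, a difference of -0.11 ± 0.064.

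The ER stress response element was searched as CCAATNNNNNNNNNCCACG, which reads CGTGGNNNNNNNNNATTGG on the other strand, in the same promoters. It was found in 22 of 33469 promoter entries (0.0657%). Counted by gene, and so in another unit, 17 of the 10586 measured genes of the array with a promoter held it. Of the 54 chaperone genes with a promoter, 3 held it (5.56%), namely Hspa5, Hsp90b1 and Dnajc3. Capitals mark the element in each.

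Hspa5, chr3:38452948-38453015, GRCr8, + strand: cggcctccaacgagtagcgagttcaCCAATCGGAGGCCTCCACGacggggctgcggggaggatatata

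Hsp90b1, chr7:23012322-23012494, GRCr8, - strand: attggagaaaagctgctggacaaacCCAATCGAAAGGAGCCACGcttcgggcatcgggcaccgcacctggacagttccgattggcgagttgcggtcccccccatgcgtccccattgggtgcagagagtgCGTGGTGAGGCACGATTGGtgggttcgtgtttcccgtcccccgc

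Dnajc3, chr15:102432509-102432577, GRCr8, + strand: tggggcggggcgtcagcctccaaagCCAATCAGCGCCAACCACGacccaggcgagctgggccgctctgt

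The match nearest the start ended 25 bases before that of Hspa5, 54 before that of Hsp90b1 and 115 before that of Dnajc3. All 3 genes were higher in the female pool, by 0.083, 0.27 and 0.12, and stayed so under the scaling and background settings tried. Scaling to the median or the spike-in controls shifted all genes by less than these differences, so it could not turn them. Over all 17 measured genes of the array with the element, these 3 included, 12 were higher and the median difference was 0.037. The median over the 10586 measured genes with a promoter was -0.0080. This count and these medians hold for the main setting. Spike-in scaling moved the median of all genes from 0.00012 to -0.066, a shift larger than 0.037. Outside the family, Canx gave 0.38 and Calr 0.14, while Ankmy2 gave -0.25, Xbp1 -0.053 and Creld2 -0.022, so the genes that hold these letters did not all stand on one side.

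The 10 mitochondrial genes were lower in the female pool in 7 cases, with a median difference of -0.047. With normexp background correction 5 of 10 were lower, where 63.3% of all genes were higher. The median was negative under each setting tried, from -0.11 to -0.0071. Scaling to the median or the spike-in controls lowered all differences and so could not turn this sign. Hspd1 and Hspe1 form the chaperonin chamber of the matrix and its lid, from the shared promoter shown above. Hspd1 stood at 3.44 in males and 3.52 in females, a difference of 0.079 ± 0.058, and Hspe1 stood at 3.8 and 3.79, a difference of -0.017 ± 0.041. The 2 probes of Hspe1 gave -0.070 and 0.037. Dnajc30, tied to ATP synthase and complex I upkeep, stood at -3.89 and -4.05, a difference of -0.16 ± 0.090, which was -0.021 with normexp background correction. Dnaja3 (Tid1), the DnaJ partner of mortalin, stood at -2.36 and -2.43, a difference of -0.074 ± 0.055, with probes at 0.011 and -0.16.

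Dnajc28, a little-studied J domain protein placed with the mitochondrial members, had the widest difference of all 68 genes. Its level was -3.38 in males and -2.74 in females, a difference of 0.64 ± 0.090 or 1.56-fold higher in the female pool. The value came from 1 probe on 1 spot, at chr11:31584550-31584609 (rn4, - strand), of which the first 30 bases are shown because no second spot or probe of the gene was on the array.

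Dnajc28: ggcaggctttctaaactggctgaatctgtg

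The spot lay in row 182 of the slide. Rows 81 to 180 formed a band in which over 4% of the repeated spots of other probes departed from their probe's median by more than 4 robust SD, and a further band spanned rows 401 to 460; these limits were chosen after the data were seen. The Dnajc28 spot thus lay just outside a band, and whether the slide had a part in its value was not tested. Its difference was between 0.57 and 0.65 under the settings tried and fell short of 1.5-fold with spike-in scaling and with normexp background correction.

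Of the 7 small heat shock proteins, 4 were higher and 3 lower in females, with a median difference of 0.0016 whose sign changed with the scaling. Hspb3, a small heat shock protein of muscle that pairs with Hspb2, was the member most in favour of the male pool. It stood at -4.30 in males and -4.70 in females, a difference of -0.40 ± 0.090 or 1.32-fold, from 1 dim spot at chr2:45078729-45078788 (rn4, - strand). With normexp background correction the difference was -0.24. Its partner Hspb2 went the other way, at -0.48 and -0.35, a difference of 0.13 ± 0.064. Hspb8, which works with BAG3 in selective autophagy, stood at -1.76 and -1.63, also a difference of 0.13 ± 0.064. Hspb1, or Hsp27, inducible by heat and by nerve injury, stood at 0.076 and 0.12, a difference of 0.041 ± 0.064. Hspb11, which the RefSeq gene table names Ift25 as a part of the intraflagellar transport complex, gave 0.072.

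The pseudogenes Hspd1-ps3 and Hspd1-ps6, copies of the chaperonin gene, gave 0.032 and -0.0057, and signal of the parent gene on these probes cannot be told apart from their own.

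A difference above 2 times its technical error was seen for 15 of the 68 genes (22.1%), beside 25.5% of all measured genes. For a probe on several spots this error is the SD of repeated spots divided by the square root of the spots, so smaller differences pass. Among those that passed, this holds for Hspa1b, Dnajc21, Dnajb11, Dnajc10 and Dnajc6, which are printed above with the larger SD over spots. The female pool was higher for 11 of the 15 genes, namely Dnajc28, Dnajc7, Hsp90b1, Hspa1b, Dnajb4, Hsp90ab1, Hspb2, Hspb8, Dnajc21, Dnajb11 and Dnajc10, and lower for 4, namely Hspb3, Dnajc5, Hspbp1 and Dnajc6. Hsp90ab1 rests on 2 probes at 0.24 and 0.060, and its error leaves out the gap between them. The share near that of all genes says nothing particular about chaperones.

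Probes of the same gene often parted. In 9 of the 12 chaperone genes with several measured probes (75%) the probes stood on both sides of 0, beside 1253 of 2912 such genes on the array (43%). The median gap between the highest and the lowest probe of a gene was 0.15 for the chaperone genes and 0.13 for all. Whether probes fall on both sides of 0 also depends on how close the gene lies to 0. The median size of a difference was 0.061 for chaperone genes and 0.092 for all genes. The 2 shares are therefore not read as a trait of chaperone probes. Dnajc17 had a probe placed on chromosome 6 in the deposited files and the other 2 on chromosome 3, at differences of 0.0034, 0.028 and -0.10. Of the measured genes, 49 rested on a single spot, 15 of these within the bands of slide rows, so most values could not be checked against a second spot.

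**Figure D4:**
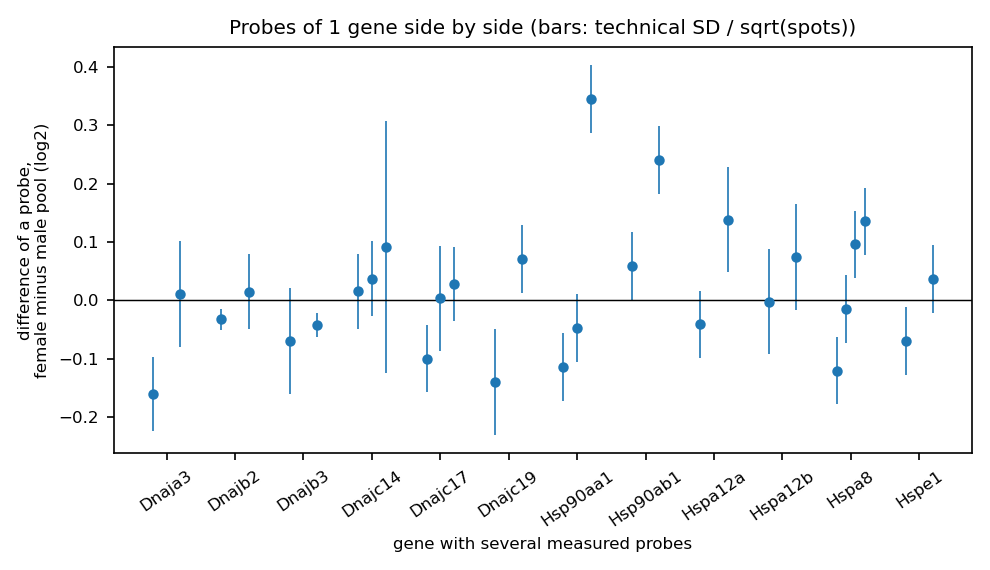
Difference between the pools (female minus male, log2) on each measured probe of the 12 chaperone genes with several probes, 1 point per probe. The probes of Hsp90aa1 run from -0.11 to 0.34 and those of Hspa8 from -0.12 to 0.14, on both sides of 0.

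Genes that regulate or partner the chaperones were read from a separate list of 57, of which 56 were measured. The female pool was higher for 32 and lower for 24, the median difference was 0.023, and 0 differed by 1.5-fold. With spike-in scaling 14 were higher, beside 32.4% of all genes. Hsf1, the main heat shock factor, stood at 0.55 in males and 0.61 in females, a difference of 0.060 ± 0.058. Hsf2 gave -0.12 and Hsf4 -0.0033. Cytosolic co-chaperones were higher in 11 of 16 cases, ER chaperones and quality control factors in 8 of 13, regulators of the unfolded protein response in 5 of 6, and mitochondrial quality control factors in 2 of 5. The 8 subunits of the cytosolic chaperonin CCT were lower in 6 cases, by a median of -0.031.

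The widest differences of this list were all in favour of the female pool. Canx (calnexin), a lectin chaperone of glycoproteins in the endoplasmic reticulum, stood at -2.33 in males and -1.94 in females, a difference of 0.38 ± 0.064 or 1.30-fold. Fkbp5, a co-chaperone of Hsp90 in steroid receptor complexes and itself a glucocorticoid and androgen target, stood at -0.46 and -0.17, a difference of 0.28 ± 0.064 or 1.22-fold. Pdia4, a disulfide isomerase, stood at -2.93 and -2.67, a difference of 0.26 ± 0.090 from a spot within a band of slide rows. Serpinh1 (Hsp47), the collagen chaperone, stood at 0.83 and 1.08, a difference of 0.26 ± 0.058. The meningeal markers, which include 3 collagen genes, were also higher in the female pool, by 0.98 in summed level, and their part in the Serpinh1 value was not tested.

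**Figure D5:**
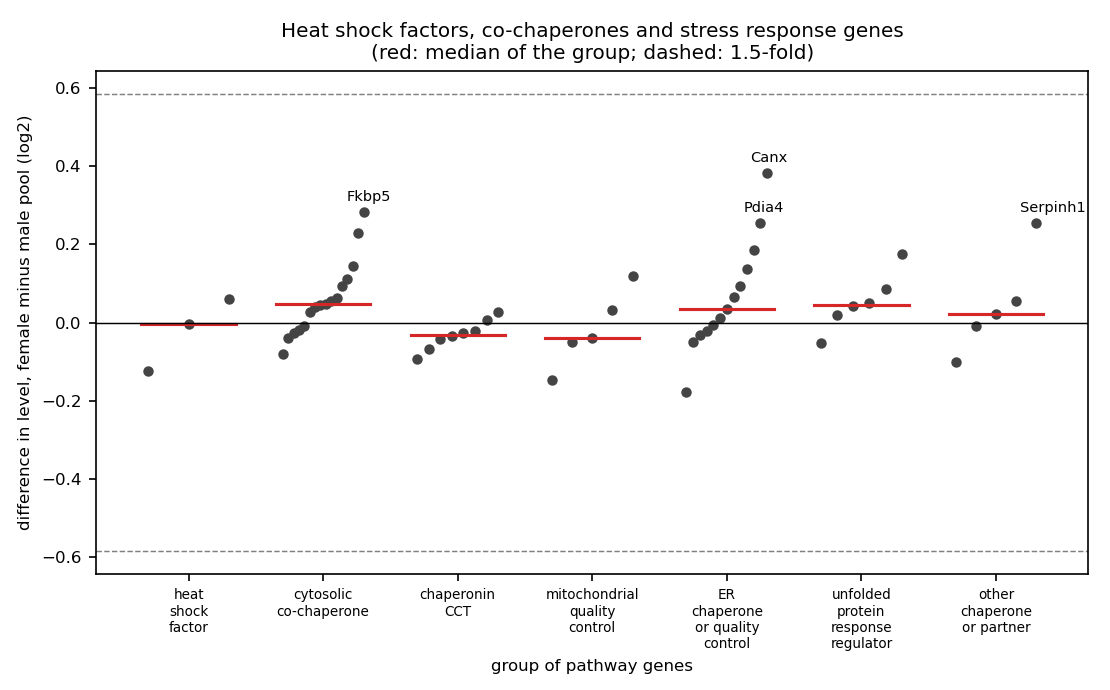
Difference between the pools (female minus male, log2) for the 56 measured heat shock factors, co-chaperones and stress response genes that are not chaperone family members, 1 point per gene, by group. Canx at 0.38 and Fkbp5 at 0.28 stand farthest from 0, and no point reaches 1.5-fold.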

How the data were processed

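Per the file headers, the deposited scanner files hold an intensity for each spot, processed by Agilent Feature Extraction 10.7.3.1 with background subtraction; the submitters' processing notes name version 9.1, and which one made the values is not settled. The deposited value table holds a signal equal to that intensity scaled so that the 75th percentile of an array stands at 100 (99.99 in the male pool), and was used as an alternative. The deposited flags for outlier spots and spots well above background are, per the file headers, a score from Feature Extraction.

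Levels were log2 of the processed intensity minus log2 of the 75th percentile over non-control spots. Spots flagged as outliers on either array (286 on the male and 292 on the female array) were left out. Spots were averaged per probe, a probe counted as measured with more than 50% of spots well above background on each array, and genes were averages of their measured probes. Technical SD came from 1310 probes with at least 5 spots, in 4 classes of level (0.215, 0.0903, 0.0638 and 0.0579 from dim to bright), divided by the square root of the spots. For genes with several probes it was carried to the mean of the probes, without the gap between them. Python 3.11.15, R 4.3.3 and limma 3.58.1 were used, and the calculation was tested on simulated data. With 1 array per group no test was made. The number of arrays limits the precision.

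Names were those of the files; 80 of the 92 chaperone probes matched the GRCr8 gene table by accession. Probe coordinates are rn4, per the deposited files, and promoters are RefSeq's, GRCr8. Gene compartments and lists follow textbook knowledge. The members and lists were chosen with earlier results of these data known. The genes named were those at least 1.5-fold apart, the 4 widest differences per compartment, those with repeated spots, those measured in 1 pool only, 16 well-known members fixed by name, the 4 widest of the pathway list and Hsf1; others are named as examples chosen after their values were seen.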

Additional observations from a re-analysis of the deposited data

How the results depend on the processing

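The counts at 1.5-fold, the medians of all chaperone genes, of the compartments and of the pathway list, the direction counts of the larger groups, and the differences of the 41 genes named by rule were recomputed with quantile normalization, scaling to the median, to the spike-in controls and to the 75th percentile of spots well above background, normexp background correction, no filter on dim probes, outlier spots kept, the brightest probe per gene, the bands of slide rows left out, the deposited value table, and pseudogenes left out (the last chosen after the data were seen). The count of chaperone genes higher in females by 1.5-fold or more was 1, and it was 0 with spike-in scaling and 0 with normexp background correction. Marker sums, motif counts and medians, counts past 2 times the technical error, probe gaps and genes named outside the rule were given under the main setting. So were the direction counts of the pathway groups other than CCT. The count for the male pool was 0 under each. The median over all genes moved from -0.066 with spike-in scaling to 0.048 with normexp, and the median of the chaperone genes from -0.043 to 0.043. Many of these settings could not move a gene far. The scalings to the median, the spike-in controls and the other 75th percentile, and the deposited value table, shift all genes by 1 constant below 0.092. Leaving out pseudogenes repeats the main values, and the brightest probe changes only genes with several probes. The following count is therefore no measure of robustness. Of 443 values for 41 named genes, 436 moved by less than the SD of repeated spots (0.092). The 7 others were Hsp90aa1 (0.16 with normexp, -0.047 with the brightest probe), Dnajb4 (0.13), Dnajc30 (-0.021) and Hspb3 (-0.24) with normexp, Hspa8 (0.14) with the brightest probe, and Hspa1l (0.30) without the bands; the cause was not tested. The normexp fit left out 2686 spots flagged for signal or background, since with them its fitted background on the male array was -595. No paired analysis was possible because each group is 1 array. Leaving out a replicate was not possible for the same reason. Depth of signal limited Hspa1l, Hspb7 and Dnajb8, near the dim end, where the technical SD was 0.215.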
